A study of Caenorhabditis elegans with 16 samples.

Results

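Of the 96 miRNA probes on the arrays, 49 were detected with a control immunoprecipitation (IP) and with neither Argonaute IP. A probe counted as detected on an array when the pixels brighter than the local background by more than 2 SD made up 50% or more of its spots, averaged over 8 spots. The 49 members were detected on at least 1 of the 8 control arrays and on none of the 8 IP arrays. Of the other probes, 33 were detected with an IP and 14 on no array. The measured values themselves thus chose the members, so any difference between IP and control given here is a description and carries no test.

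MicroRNAs are short RNAs that act inside an Argonaute protein, which holds the miRNA and uses its seed to find partly complementary target mRNAs, whose translation or stability then falls. In Caenorhabditis elegans, ALG-1 and ALG-2 are the main Argonautes of the miRNA pathway, and larval development depends on miRNAs such as lin-4 and let-7, which set the timing of cell fates. An IP from a lysate that carries the antibody's target recovers the Argonaute with its bound miRNAs. A control IP uses the same antibody on a lysate without that target and measures what is recovered without it.

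The study asked which miRNAs were bound by each Argonaute through larval life, on whole animals grown at 20 °C and synchronized by bleaching. The ALG-1 IP used a rabbit polyclonal antibody to ALG-1 on animals labelled wild type, for which the methods describe alg-1(gk214) mutants with an integrated ALG-1 transgene under the alg-1 promoter. The ALG-2-Tag IP used a monoclonal antibody to GFP on alg-2(ok304) mutants that carried GFP::ALG-2 under the alg-2 promoter, integrated after injection. The ALG-1 control used the antibody to ALG-1 on alg-1(gk214) mutants, which carry a deletion in alg-1 and keep alg-2, and the ALG-2-Tag control used the antibody to GFP on wild-type N2, the usual laboratory strain. All strains share the N2 background. Each IP was measured at stages L1, L2, L3 and L4 on 1 array, 16 arrays in all, so there is no replicate within a stage and the 4 stages stand in for replicates wherever a spread is given. Probes are known by number alone in the files (emc01 to emc96), with no miRNA beside them, so no member is named, no sequence is shown, and the tissue could not be checked against known miRNAs.

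The signal ran against the labels in a respect that touches every member. The ALG-1 IP arrays had 22, 11, 7 and 10 probes detected at L1, L2, L3 and L4 and the ALG-2-Tag IP arrays 14, 10, 5 and 8, whereas the ALG-1 control arrays, from animals mutant for alg-1, had 79, 61, 76 and 22. Names of the scanner images held the labelled stage on 16 of 16 arrays and the labelled Argonaute or strain on 12. The other 4 were the ALG-1 control arrays, whose names held none of the codes looked for, those of ALG-1, ALG-2 and N2. No code for the alg-1 mutants was looked for, so the names do not check the identity of that group. The study also probed the IPs of each stage by Western blot for ALG-1 and GFP::ALG-2, which is not analysed here. An exchange of arrays between IP and control was not tested, and groups are named here as labelled. All control arrays were scanned on one day and all IP arrays on another, at the same gain, so that scan day and the difference between IP and control cannot be told apart.

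The members entered through the ALG-1 control. On its L1, L2, L3 and L4 arrays 46, 28, 43 and 9 members were detected, where 82.3%, 63.5%, 79.2% and 22.9% of all 96 probes were. On the ALG-2-Tag control arrays 4 members were detected at L1 and 0 at L2, L3 and L4, where 22.9%, 7.29%, 2.08% and 2.08% of all probes were. The 4 were emc02, emc09, emc20 and emc43, each of which was also detected with the ALG-1 control. The remaining 45 were therefore detected on no array but those of the ALG-1 control.

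Detection over the stages of the ALG-1 control fell into 5 patterns. There were 19 members detected at L1, L2 and L3, 12 at L1 and L3 alone, and 9 at all 4 stages. A further 6 were detected at L1 alone, and 3, emc01, emc10 and emc78, at L3 alone. No member was detected at L4 or L2 without L1 and L3. Each array carried the probes in 4 blocks, and of the 130 detections of members 105 held in all 4 blocks, 15 in 3 and 10 in 2 or fewer. The detections at L4 were the least even, since 2 of the 9 held in every block, and at L1 of the ALG-2-Tag control 1 of 4 did.

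How far the members lay from the detection limit differed widely among them. Over the IP arrays the highest percent of pixels past that 2 SD line had a median of 26.4 among the members, with 11 members at 40 or more and 23 below 25. That highest percent was on an ALG-1 IP array for 37 members, 34 of them at L1, and on an ALG-2-Tag IP array for 12. Over the control arrays the highest percent had a median of 96.25, and 29 members reached 90 or more. So the members ranged from probes that nearly filled their spots with the ALG-1 control to probes that barely passed.

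Some members lay just inside the limit. The highest percent with an IP was 48.25 for emc25, at L1 of the ALG-2-Tag IP, and 47.5 for emc02, at L2 of the ALG-1 IP. Just beyond that edge emc53 had 50.5% at L1 of the ALG-2-Tag IP and emc55 had 50.75% at L1 of the ALG-1 IP, which made them probes detected with an IP. At the other edge emc06 and emc81 were members with 51.38% each at L1 of the ALG-1 control, and emc85 and emc82 missed with 48.38% and 47.25% at L3 of the ALG-1 control. The steps across either edge were thus a few percent of pixels.

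The intensities, which are medians of spot pixels minus the local background in scanner units and were not normalized between arrays, followed the detections. Over the 49 members the median intensity at L1, L2, L3 and L4 was 224.5, 149.5, 80.5 and 140.0 with the ALG-1 IP and 62.5, 65.0, 66.0 and 111.5 with the ALG-2-Tag IP. With the ALG-1 control it was 1347, 686.5, 946 and 247, and with the ALG-2-Tag control 443.5, 259, 88.5 and 60. The ALG-1 control was thus the brightest at every stage, and at L4 the ALG-2-Tag control was the dimmest of the 4 groups. RNA came from whole animals, so fewer cells with a miRNA, less of it per cell and less RNA recovered in an IP cannot be told apart.

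Single members spread far more with the ALG-1 control than elsewhere at L1, L2 and L3, while at L4 their range was similar with the ALG-2-Tag IP. On the IP arrays their intensities covered 93.5 to 420.0 at L1 and 88.0 to 448.0 at L4 with the ALG-1 IP, and -15.5 to 466.5 and 7.5 to 764.0 with the ALG-2-Tag IP. With the ALG-1 control they covered 454.5 to 10388 at L1 and 90 to 962.5 at L4, against 140.5 to 637.5 and 26.0 to 200.5 on the ALG-2-Tag control arrays of the same stages. With the ALG-1 IP the members' range lay wholly below that of the ALG-1 control at L1 and at L3, where it ended at 296.0 against a start of 333.0, and it overlapped at L2 and L4. The scanner software failed to find 49.5% to 83.9% of member spots with the ALG-1 IP and 78.1% to 93.1% with the ALG-2-Tag IP, against 1.53% to 51.3% with the ALG-1 control and 40.3% to 96.2% with the ALG-2-Tag control.

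The members were of middling brightness within each array, whatever its overall signal. Ranked among the 96 probes of the same array, their median lay between the percentiles 42.7 and 56.3 on all 16 arrays. The 33 probes detected with an IP had their median between 63.5 and 83.3, and the 14 probes detected on no array between 7.81 and 21.4. This middle place largely follows from the rule, which set aside probes bright enough for detection with an IP and probes too dim for any array. All 33 probes detected with an IP were also detected at L1, L2 and L3 of the ALG-1 control, so the members were not set apart by being the only probes seen with that control. Position on the array was uneven as well: counted over 4 bands of 4 rows, the members numbered 15, 13, 15 and 6, the probes detected with an IP 6, 11, 9 and 7, and the probes detected on no array 3, 0, 0 and 11.

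Most members were dimmer with each IP than with its control at the early stages. All 49 members were dimmer with the ALG-1 IP than with the ALG-1 control at L1, L2 and L3, and 38 were at L4. For 29 members the ALG-1 IP arrays lay wholly below the ALG-1 control arrays. With the ALG-2-Tag IP, 47, 46, 30 and 13 members were dimmer than with the ALG-2-Tag control at L1, L2, L3 and L4. So most members at L4, and many at L3, were brighter with the ALG-2-Tag IP than with its control, below the detection limit in both. The rule chose members that were low with the IPs, so these counts describe the members and support nothing about binding.

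For a probe below the limit on every IP array, only a bound on the fold can be had. It sets the mean log2 intensity of the control against a mean for the IP arrays in which each array gave whichever was greater, the probe's own signal or the dimmest signal that counted as detected, after background correction with an offset of 50. Without normalization between arrays, the bound with the ALG-1 control over the ALG-1 IP was above 1 for 37 of 49 members, at least 2-fold for 20 and at least 4-fold for 6. The highest was emc25, whose level with the ALG-1 IP was at least 9.46-fold lower than with the ALG-1 control. With every array shifted so that the median of its 96 probes was 0 (centring), 2 members kept a bound above 1 and the highest was 2.129. With the ALG-2-Tag control over the ALG-2-Tag IP, which could be computed for the 4 members detected there, no bound was above 1. The rule chose members undetected with the IPs and detected with a control, which favours a bound above 1. These counts cover the members alone, with no share over all probes beside them, and describe the members only.

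The brightest members were emc25 and emc26. emc25 had intensities of 274.0, 159.0, 75.5 and 93.5 at L1, L2, L3 and L4 with the ALG-1 IP and 466.5, 166.0, 252.5 and 170.5 with the ALG-2-Tag IP. With the ALG-1 control it had 10388, 2673.5, 8250.5 and 962.5, and with the ALG-2-Tag control 318.0, 263.5, 92.5 and 61.5. The ALG-1 control thus stood above all other arrays at every stage, and the ALG-2-Tag IP was brighter than its own control at L1, L3 and L4. emc26 had 299.0, 151.0, 112.0 and 136.5 with the ALG-1 IP and 211.5, 221.5, 206.0 and 764.0 with the ALG-2-Tag IP. It had 8452.5, 1909.5, 3996.0 and 542.5 with the ALG-1 control and 565.0, 191.0, 78.5 and 44.0 with the ALG-2-Tag control. At L4 the ALG-2-Tag IP thus gave the brightest value of emc26, yet no detection, since 38.9% of its pixels passed there against 59.6% with the ALG-1 control.

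The dimmest members over the control arrays were emc77 and emc78. emc78 had 230.0, 117.5, 38 and 136.5 with the ALG-1 IP and -15.5, 27.0, 31.5 and 81.5 with the ALG-2-Tag IP, against 454.5, 210.0, 457.5 and 90 with the ALG-1 control and 207.0, 203.5, 51.5 and 87.0 with the ALG-2-Tag control. It was detected on 1 array, L3 of the ALG-1 control, with 58.4% of pixels, and at L4 the ALG-1 IP was the brighter of the pair. emc77 was likewise detected on 1 array, L1 of the ALG-1 control, with 63.0% of pixels, and at that stage its intensity was 126.0 with the ALG-1 IP against 623.0 with the ALG-1 control.

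The members detected with both controls differed widely in signal, from 695.0 for emc09 to 5059.5 for emc43 at L1 of the ALG-1 control. emc43, the brightest of these with the ALG-1 control, had 361.5, 224.0, 95 and 143.5 with the ALG-1 IP and 236.0, 147.0, 126.0 and 195.5 with the ALG-2-Tag IP. It had 5059.5, 1332.5, 1577.5 and 367.5 with the ALG-1 control and 619.0, 494.5, 139.0 and 57.5 with the ALG-2-Tag control. emc02 was close to detection on the ALG-1 IP arrays, with 393.5, 425.0, 296.0 and 416.5 and 36.0% to 47.5% of pixels, and lay at 64.5, 96, 66 and 332.0 with the ALG-2-Tag IP. Its control values were 815.0, 1326.5, 1744.5 and 565.5 for ALG-1 and 528.0, 492.5, 209.0 and 200.5 for ALG-2-Tag, so the ALG-1 IP exceeded the ALG-2-Tag control at L3 and L4.

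The member emc03, unlike emc02, was brighter with the ALG-2-Tag IP than with the ALG-1 IP at L1 and L4. Its intensities at L1, L2, L3 and L4 were 120.5, 136.0, 86.0 and 115.0 with the ALG-1 IP and 174.0, 103.0, 78.5 and 178.5 with the ALG-2-Tag IP. The ALG-1 control gave 1876.5, 1502.5, 1487.5 and 515.5 and the ALG-2-Tag control 166.0, 178.5, 122.0 and 51.0. All 4 values of the ALG-1 control thus lay above the 12 others, while the remaining groups overlapped.

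Between the 2 Argonaute IPs, no fold and no test can be given, because every member was below the limit in both. By raw intensity 43, 41, 32 and 36 members were brighter with the ALG-1 IP than with the ALG-2-Tag IP at L1, L2, L3 and L4. That held at all 4 stages for 26 members and at none for 1. With the ALG-2-Tag IP 189 of 1568 member spots lay below the local background, against 10 with the ALG-1 IP, 3 with the ALG-1 control and 41 with the ALG-2-Tag control.

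Averaged over the stages, the order of the members with each IP was most like their order with the other Argonaute's control. Spearman's rho was taken over the 49 members between centred log2 values of arrays of the same stage, and averaged over the 4 stages. It was 0.69 between the ALG-2-Tag IP and the ALG-1 control, with 0.448 to 0.82 at the single stages, and 0.626 between the ALG-1 IP and the ALG-2-Tag control, with 0.557 to 0.726. Each IP was less like its own control, with 0.316 for ALG-1 and 0.131 for ALG-2-Tag. The 2 IPs had 0.28 with each other, and the 2 controls 0.184.

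These values describe the arrays and carry no p, since probes are not independent replicates and members of one array share its labelling, its background and its place on the slide. Between stages of the same group, rho over the members averaged 0.744 for the ALG-1 IP, 0.593 for the ALG-2-Tag IP, 0.796 for the ALG-1 control and 0.436 for the ALG-2-Tag control. So for the ALG-2-Tag IP the mean rho with the ALG-1 control exceeded that between its own stages. Among the 33 probes detected with an IP the same 2 pairings averaged 0.671 and 0.895, so the likeness was not limited to the members. The SD over the spots of a member had a median of 0.426 on the log2 scale with the ALG-1 IP, 0.634 with the ALG-2-Tag IP, 0.361 with the ALG-1 control and 0.553 with the ALG-2-Tag control.

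The control IPs were compared with limma on the 8 control arrays, centred, with terms for control and stage, and Benjamini-Hochberg adjustment over the 96 probes. All 8 were scanned on the same day, and both arrays of a stage at the same slide position. The fit gave all probes 1 common spread, so the SE of the difference between controls was 0.31 on the log2 scale for every member. The fit covers all probes, but for the members it is a description, since 45 of them entered through detection on the ALG-1 control arrays that it compares. After centring, 22 of 49 members differed at an adjusted p of 0.05, 9 higher and 13 lower with the ALG-1 control than with the ALG-2-Tag control, and 18 of the 22 kept their direction at all 4 stages. Across the 96 probes 60.4% were called, 24.0% higher and 36.5% lower, against 18.4% and 26.5% of the members. Of the 33 probes detected with an IP 14 were higher and 9 lower, and of the 14 probes detected on no array 0 were higher and 13 lower. The split moved with the centring, to 4 higher and 24 lower members with arrays centred on their 75th percentile and 8 higher and 7 lower after quantile normalization. The median difference was -0.15 over the members and -0.38 over all probes.

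Directions here depend on the scale. The array medians themselves lay 1.96 log2 units higher with the ALG-1 control, with 2.39, 1.79, 2.90 and 0.75 at L1, L2, L3 and L4. Without normalization 38 members were called higher and 0 lower, against 65.6% of all probes higher and 0.0% lower, and all 49 members had positive differences. The members were chosen by detection, which for 45 of them came from the ALG-1 control alone, so a higher raw level there was largely fixed by the choice. At single stages 41 members were brighter with the ALG-1 control at all 4 and 8 at 3 of 4, and for 10 members its arrays lay wholly above those of the ALG-2-Tag control.

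Among the members, emc25 and emc26 had the largest centred differences toward the ALG-1 control. Probes detected with an IP reached larger ones, such as 3.89 for emc30 and 2.81 for emc31. From the intensities given above, the centred difference was 2.72 for emc25 (SE 0.31), higher at 4 of 4 stages. For emc26 the difference was 1.88 (SE 0.31), higher at 4 of 4 stages. Both were members through the ALG-1 control alone, so no p is given for either. Since the ALG-2-Tag control arrays held only undetected values of both, the bound applies, and emc25 was at least 8.01-fold higher with the ALG-1 control without normalization and at least 2.07-fold higher after centring. In all, 28 of the 45 members undetected with the ALG-2-Tag control had a bound above 1 without normalization, 15 of at least 2-fold and 2 of at least 4-fold, and 2 had one after centring. Here too the counts cover the members alone, with no share over all probes, and follow in part from the choice of members.

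At the other end were emc68 and emc94, each detected on 1 array, L1 of the ALG-1 control. emc68 had 725.5, 213.5, 345.5 and 185.5 at L1, L2, L3 and L4 with the ALG-1 control and 475.0, 313.0, 149.5 and 61.5 with the ALG-2-Tag control. The raw values overlapped between the controls, and the ALG-1 control was brighter at 3 of 4 stages. Relative to the array medians emc68 was 1.44 log2 units lower with the ALG-1 control, a difference of -1.44 (SE 0.31), and without normalization the difference was 0.52. With its own spread in place of the common one emc68 was not past the threshold. emc94 had 909.0, 305.0, 405.5 and 91.0 with the ALG-1 control and 506.5, 389.5, 59.0 and 33.0 with the ALG-2-Tag control, with a centred difference of -1.32 (SE 0.31) that was 0.64 without normalization. Both were lower at 4 of 4 stages after centring. By raw intensity both were weaker with the ALG-1 control at L2 and brighter at L1, L3 and L4. At those 3 stages the lower place thus means one below the middle of a bright array, not a weaker spot.

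Over the larval stages most members were brightest at L1 and dimmest at L4 with the controls. These counts were made on the log2 scale after background correction, without normalization between arrays. With the ALG-1 control 43 of 49 members were brightest at L1 and 46 dimmest at L4, and with the ALG-2-Tag control 42 were brightest at L1 and 33 dimmest at L4. With the ALG-1 IP 30 were brightest at L1 and 7 dimmest at L4, and with the ALG-2-Tag IP 15 and 3, so most members were not dimmest at L4 with either IP. After centring, the first counts came to 8 with the ALG-1 control and 13 with the ALG-2-Tag control, so most of the difference was shared by the whole array.

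With the ALG-1 control the stages alternated on that scale: L1 and L3 were both above L2 and L4 for 40 of 49 members, by more than 1 log2 unit for 14. The same held with the ALG-1 control for 20 of the 33 probes detected with an IP and 12 of the 14 detected on no array. It held for 10 members with the ALG-1 IP, 3 with the ALG-2-Tag IP and 0 with the ALG-2-Tag control. Among the members the widest gap with the ALG-1 control was 2.60 log2 units, that of emc27, chosen after its values were seen. It had 2513.5, 233.0, 1366.0 and 163.5 with the ALG-1 control and 306.5, 256.5, 91.5 and 44.5 with the ALG-2-Tag control. At L2 it was thus dimmer with the ALG-1 control, and at L1 and L3 far brighter. After centring 8 members kept the pattern with the ALG-1 control, the largest gap being 0.78 for emc26. On the centred scale 9 members had it with the ALG-2-Tag control, 8 with the ALG-2-Tag IP and 7 with the ALG-1 IP. The L1 and L3 arrays were scanned at the upper and the L2 and L4 arrays at the lower slide position, in all 4 groups, and their part in the pattern was not tested.

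Stages were also tested in the fit to the centred control arrays, where each stage has 1 array per control and the SE was 0.44. The same arrays served to choose the members, by detection at any stage. At L2 against L1, 0 members were called by limma (5 at an unadjusted p under 0.05) and 0.0% of all probes. At L3 against L1, 0 members were called (3 at an unadjusted p under 0.05) and 1.04% of all probes. At L4 against L1, 4 members were called, all higher relative to the array median, and 11.5% of all probes, among them 7 of the 14 detected on no array. The share among the members was 8.16%, no larger than the background. Every L1 array was scanned at the upper and every L2 and L4 array at the lower slide position, so for these stages position and stage cannot be told apart.

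The largest of these were emc02, with a difference of 1.38 (SE 0.44, limma adjusted p = 0.02889), and emc03, with 1.35 (SE 0.44). Both had the same direction in the 2 controls. With the ALG-2-Tag control emc02 was detected at L1 (50.25% of pixels) and not at L4 (19.12%). There emc03 was undetected at every stage, with 15.25% at L1 and 6.12% at L4, so its direction in that control rests on values below the limit. As emc03 was a member through the ALG-1 control alone, no p is given for it. By raw intensity neither emc02 nor emc03 was brighter at L4. With the ALG-1 control emc02 had 565.5 at L4 and 815.0 at L1, and with the ALG-2-Tag control 200.5 and 528.0. emc03 had 515.5 and 1876.5 with the ALG-1 control, and 51.0 and 166.0 with the ALG-2-Tag control, so both fell less than the array median did. Without normalization the differences were -0.80 and -0.83. Over the alternatives the difference ran from -0.801 to 2.298 for emc02 and from -0.827 to 1.824 for emc03. With centring on the probes detected on no array the difference of emc02 was 0.188 (limma adjusted p = 0.8039). Without the L1 array of the ALG-1 control it was 0.46. Leaving out the L1 or the L4 array of the ALG-1 control left 0 members called at L4 against L1, and leaving out the L1 or the L4 array of the ALG-2-Tag control left 2.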

How the data were processed

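Small RNA from each IP was labelled with 1 dye and hybridised to 16 single-colour arrays of 768 spots, 96 probes in 8 spots each. The deposited value is the intensity of a spot from GenePix Pro 4.0.1.19 (the median of its pixels minus the local background, scanner gain 790, not normalized). Each deposited file also held, for every spot, a percent of pixels exceeding the background by 2 SD, and flags. Processed intensity values that the authors deposited in another table served as an alternative. R 2.13.1 and limma are named in the submitters' processing notes.

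Spots flagged bad (57) were left out. In R 4.3.3, limma 3.58.1 corrected the background (normexp, offset 50), each probe was given the mean log2 value of its spots, and arrays were centred on their median over the 96 probes. The linear model with terms for control and stage had 3 residual degrees of freedom, and eBayes gave 1 common spread. Its p-values measure the spread over stages, not over repeated IPs. It was tested on simulated arrays with known differences. The number of arrays limits the precision.

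The members, lists and tests were chosen with earlier results of these data known. Named are the brightest and dimmest members, the largest called differences, the members detected most often and those at the detection limit, at most 2 each way. Because probes carry no miRNA names, lists of miRNA families and tissue miRNAs were not used. The sources name different suppliers for the antibody to GFP. Alternatives were other normalizations, an offset of 0, the median of spots, other detection limits, the processed values, a fit to all 16 arrays, a filter on detection and leaving out arrays. Centring on probes detected on no array and separate spreads were chosen after seeing the data.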

Additional observations from a re-analysis of the deposited data

Results flagged for a closer look

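Of 48 groups of 4 arrays looked at, 5 had 1 array far from the other 3, and these 5 were all of named members. The rule is meant for replicates, among which chance would flag about 1 in 20. Here the 4 arrays of a group were different larval stages, and the probes shared the same arrays. That rate therefore does not apply, and nothing is concluded from the count. The gap to the nearest array, as a share of the group's range on the log2 scale, was 0.875 for emc26 with the ALG-1 IP, whose L1 array was high (8.14, against 7.11 to 7.24 at the other stages). It was 0.941 for emc94 with the ALG-1 IP, also high at L1 (8.54, against 6.95 to 7.04). For emc02 with the ALG-1 IP it was 0.856, with L3 low (8.29, against 8.65 to 8.71). For emc06 with the ALG-2-Tag IP it was 0.889, with L4 high (7.83, against 6.94 to 7.04). The probes detected on no array were also high there, with a median of 7.70, against 6.54 to 6.77 at the other stages. For emc03 with the ALG-1 control the gap was 0.841, with L4 low (8.86, against 10.47 to 10.78). All but the last lay below the detection limit. After centring, L4 was no longer highest for emc06 or lowest for emc03, and L3 no longer lowest for emc02. L1 stayed highest for emc26 and emc94.

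For 2 named members the difference of IP minus control ran one way at all 4 stages for ALG-1 and the other way at all 4 for ALG-2-Tag, on the log2 scale without normalization. For emc25 the mean difference was -4.77 for ALG-1 and 1.02 for ALG-2-Tag, which differed by -5.79. emc03 had -3.35 and 0.76, which differed by -4.11. The difference was not tested, and the members were chosen on these values. Both were undetected on every array of the 2 IPs and of the ALG-2-Tag control. These values are therefore differences of measured signal that lay partly below the limit, and for the fold only the bound given above applies. At L2 the intensity of emc25 before the correction of the background was 166.0 with the ALG-2-Tag IP and 263.5 with its control, the opposite order. For emc03 the order was likewise opposite at L2, with 103.0 and 178.5, and at L3, with 78.5 and 122.0. After centring, neither member kept its direction at all 4 stages for ALG-2-Tag. At L4 emc25 had -0.208 with the IP and -0.191 with the control, and at L3 emc03 had 0.089 and 0.183.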

How the results depend on the processing

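The 49 members became 26, of which 16 were shared, when detection required at least 4 of 8 spots found. Other limits gave 42 to 52, and leaving out 1 stage gave 46 to 57, the last without L1.

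Against 22 members called between the controls, 38 were called without normalization (all higher), 37 with centring on the probes detected on no array (all higher) and 14 with the authors' processed values (9 higher, 5 lower). Limited to probes detected on at least 2 control arrays, 19 were called (13 higher, 6 lower). emc68 and emc94 changed sign, to 0.52 and 0.64 without normalization and to 0.054 and 0.167 with that other centring.

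The 4 members called at L4 against L1 became 34, all lower, without normalization, 2 with an offset of 0 or with only probes detected on at least 2 control arrays, 1 with the processed values, and 0 with quantile normalization, the median of spots, the fit to all 16 arrays, the other centring or a separate spread for each probe. Without normalization emc02 and emc03 had -0.80 and -0.83. Leaving out 1 stage gave 18 to 26 members between the controls. Leaving out 1 array gave 0 to 3 members at L2, 0 to 1 at L3 and 0 to 4 at L4, each against L1. The causes were not tested. The stage term already pairs the 2 controls, and without it 21 members were called. No paired analysis was possible because, beyond the stage, the labels give no replicate number to pair on. Signal near the background limits every value on the IP arrays.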
